A study of Mus musculus with 13 samples.

Results

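Axon guidance genes encode secreted and membrane-bound ligands and the receptors that read them, and 65 of them were followed across mouse lymph nodes and melanomas. The set held every protein-coding gene of the count tables whose GENCODE M21 symbol belongs to semaphorin classes 3 to 7, the plexins, the ephrins, the Eph receptors, the netrins, the Unc5 receptors, the Slits or the Robos, out of 49315 gene identifiers in all. It comprised 34 ligands (20 semaphorins, 8 ephrins, 3 netrins and 3 Slits) and 31 receptors (9 plexins, 14 Eph receptors, 4 Unc5 genes and 4 Robo genes). A further gene of the rule, Ntn3, was not analysed here. Membership was decided by gene symbol.

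All mice were females that carried Foxp3eGFP-Cre-ERT2, a Cre recombinase that is expressed from the Foxp3 gene, the defining gene of regulatory T cells, and becomes active with tamoxifen. Foxp3ΔJag1 mice were Jag1fl/fl, so that the Notch ligand gene Jag1 is deleted in Foxp3-expressing cells. Their Foxp3Ctrl counterparts were Jag1fl/wt in the design text and WT in the sample labels, and the labels do not settle which. Both genotypes received tamoxifen 5 times, at 0.1 mg per g of body weight, when 6 to 8 weeks old. After 9 days of washout, 200000 cells of B16F10, an established mouse melanoma line, were injected with matrigel into the skin of the flank at 6 to 11 weeks of age. The whole tumour-draining lymph node and the whole tumour were sequenced in bulk, with 3 Foxp3Ctrl nodes, 3 Foxp3ΔJag1 nodes and 3 Foxp3Ctrl tumours analysed. For each control replicate, node and tumour carry 1 mouse code in their library names. The 4 Foxp3ΔJag1 tumours of the labels were not analysed here.

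Semaphorins signal through plexins. Class 3 semaphorins are secreted and mostly need a neuropilin as co-receptor, whereas classes 4 to 7 are tethered to the membrane. Ephrins are membrane-bound too: ephrins-A have a lipid anchor and mainly bind EphA receptors, ephrins-B span the membrane and mainly bind EphB receptors, and both partners can signal. Netrins act through Dcc, neogenin and the Unc5 receptors, and Slits act through Robos. Outside the nervous system these systems are known for steering endothelial cells, for contacts between lymphocytes and antigen-presenting cells (Sema4a, Sema4d and Sema7a in particular) and for altered cell movement in tumours.

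Total counts were between 32117478 and 44540888 per library, and the labels put every sample in batch 1. The tissue labels were set beside marker genes. The 6 melanocyte markers (such as Pmel and Tyr) summed to between 17040 and 22390 CPM (counts per 1000000 counts of the library) in tumours and to between 10.8 and 33.4 CPM in Foxp3Ctrl nodes. The 5 B cell markers summed to between 2832 and 3061 CPM in Foxp3Ctrl nodes and to between 1.88 and 3.30 CPM in tumours, and the 6 T cell markers to between 1014 and 1311 against between 25.4 and 45.9 CPM. The identifiers read here for the node markers Ccl21a and Ccl19 lie on an unplaced contig in GENCODE M21. They had no count in any library. No other identifier of these symbols was read, so the missing counts do not give the level of Ccl21a or Ccl19 in nodes. Jag1 itself had 22.0, 23.2 and 24.4 CPM in Foxp3Ctrl nodes and 27.8, 20.7 and 23.8 CPM in Foxp3ΔJag1 nodes, overlapping values with a log2 fold change of 0.03 ± 0.11 (SE). Because the deletion is confined to Foxp3-expressing cells, the level in a whole node does not check it. Foxp3 had between 12.2 and 18.0 CPM in Foxp3Ctrl nodes and between 17.5 and 23.8 CPM in Foxp3ΔJag1 nodes.

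Together the 65 genes took between 0.154% and 0.171% of all counts in nodes and between 0.332% and 0.387% in tumours. Their summed level was 1555, 1708 and 1554 CPM in Foxp3Ctrl nodes, 1653, 1538 and 1588 CPM in Foxp3ΔJag1 nodes, and 3319, 3514 and 3870 CPM in Foxp3Ctrl tumours. The node groups overlapped and every tumour lay above every node. The difference lay with the receptors. They summed to 707 ± 56.8 CPM in Foxp3Ctrl nodes and 2896 ± 312 CPM in tumours (SD, n = 3), a ratio of 4.10, whereas the ligands summed to 899 ± 36.3 and 672 ± 40.4 CPM, a ratio of 0.747. Plexins alone held between 67.2% and 74.3% of the summed level in tumours, against between 33.4% and 35.6% in Foxp3Ctrl nodes. Class 4 semaphorins held between 32.4% and 38.7% of the sum in Foxp3Ctrl nodes, a range that overlapped that of the plexins, and between 5.89% and 7.07% in tumours. These shares are not scaled by gene length. As CPM per kilobase of merged exons, class 4 semaphorins summed to 90.0 ± 4.33 and plexins to 68.6 ± 5.71 in Foxp3Ctrl nodes (SD, n = 3). The RNA comes from whole tissue, so fewer cells of a type and less RNA per cell cannot be told apart for any gene below.

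**Figure D1:**
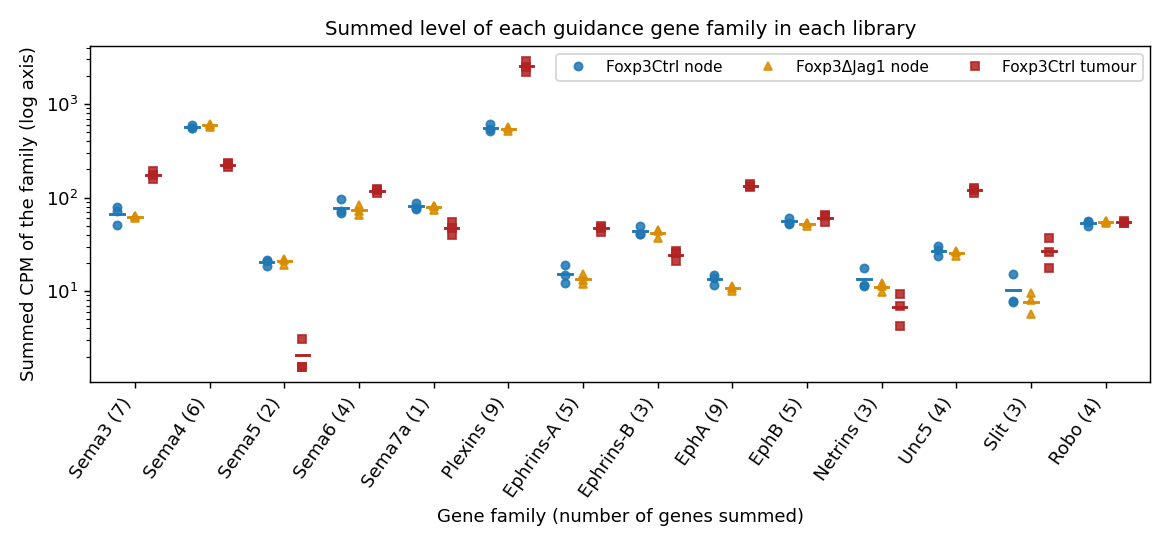
Summed CPM of each of the 14 families (log axis) in the 3 Foxp3Ctrl nodes (circles), 3 Foxp3ΔJag1 nodes (triangles) and 3 Foxp3Ctrl tumours (squares), with the mean as a bar and the number of genes summed in brackets. The plexins stand at 2230 to 2873 CPM in tumours against 520 to 607 CPM in Foxp3Ctrl nodes, while the node groups overlap in every family except EphA (11.6 to 15.1 CPM in Foxp3Ctrl, 10.1 to 11.5 CPM in Foxp3ΔJag1). Taken singly, 0 of the 5 EphA genes tested lacked overlap between the node groups, against 7.29% of all genes tested.

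Between genes, levels were ordered as CPM per kilobase of merged exons. In Foxp3Ctrl nodes the order began with Sema4d at 35.9 ± 2.36 (SD, n = 3), a semaphorin of lymphocytes that binds plexin-B1 and CD72. Sema4a (26.8), Sema7a (24.4), Plxnb2 (22.1), Plxnd1 (19.6) and Sema4b (18.7) came next, and each of these overlapped its neighbour in range. Plxnc1, a receptor of Sema7a, followed at 16, with no overlap with Sema4b above it or Efnb1 (7.58) below it. Foxp3ΔJag1 nodes gave the same 10 genes in the same order, from Sema4d (36.2) to Plxna1 (5.45). At the other end, Unc5d was at 0 counts in all Foxp3Ctrl nodes, and Epha6 (0.00493), Sema3e (0.00367) and Epha5 (0.00111) stood just above it.

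Tumours gave another order. Plxna1, a receptor for class 3 and class 6 semaphorins, led at 122 ± 27.1 CPM per kilobase, above Plxnd1 (72.4) and Plxnb2 (68.5), which overlapped each other. After a gap came Sema3b (28.1), Plxnc1 (24.4), Sema4c (16.9), Plxnb1 (15.1), Sema7a (14.4) and Epha3 (13.3), each overlapping its neighbour. Sema4d, first in nodes, was at rank 21.

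The tumour and the draining node of the 3 control mice were then compared gene by gene with edgeR's quasi-likelihood test, calling a gene at a Benjamini-Hochberg adjusted p under 0.05 over all genes tested. This fit had no term for the mouse, and a fit with the mouse as a block was 1 of the alternatives. Of the 65 genes, 61 had enough counts, and 25 were higher and 23 lower in tumour. Most genes differ between these tissues: 35.6% of all 18566 genes tested were called higher, 37.6% lower and 73.2% in either direction. The guidance genes' shares of 41.0%, 37.7% and 78.7% lie near that background. Their median log2 fold change was 0.11, against -0.05 for all genes tested. In 11 of the 14 families at least 1 gene was called in each direction. The netrins, the class 5 semaphorins and Sema7a had called falls and no called rise. Receptors were called higher in 13 and lower in 8 of 27 tested cases, and ligands in 12 and 15 of 34.

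**Figure D2:**
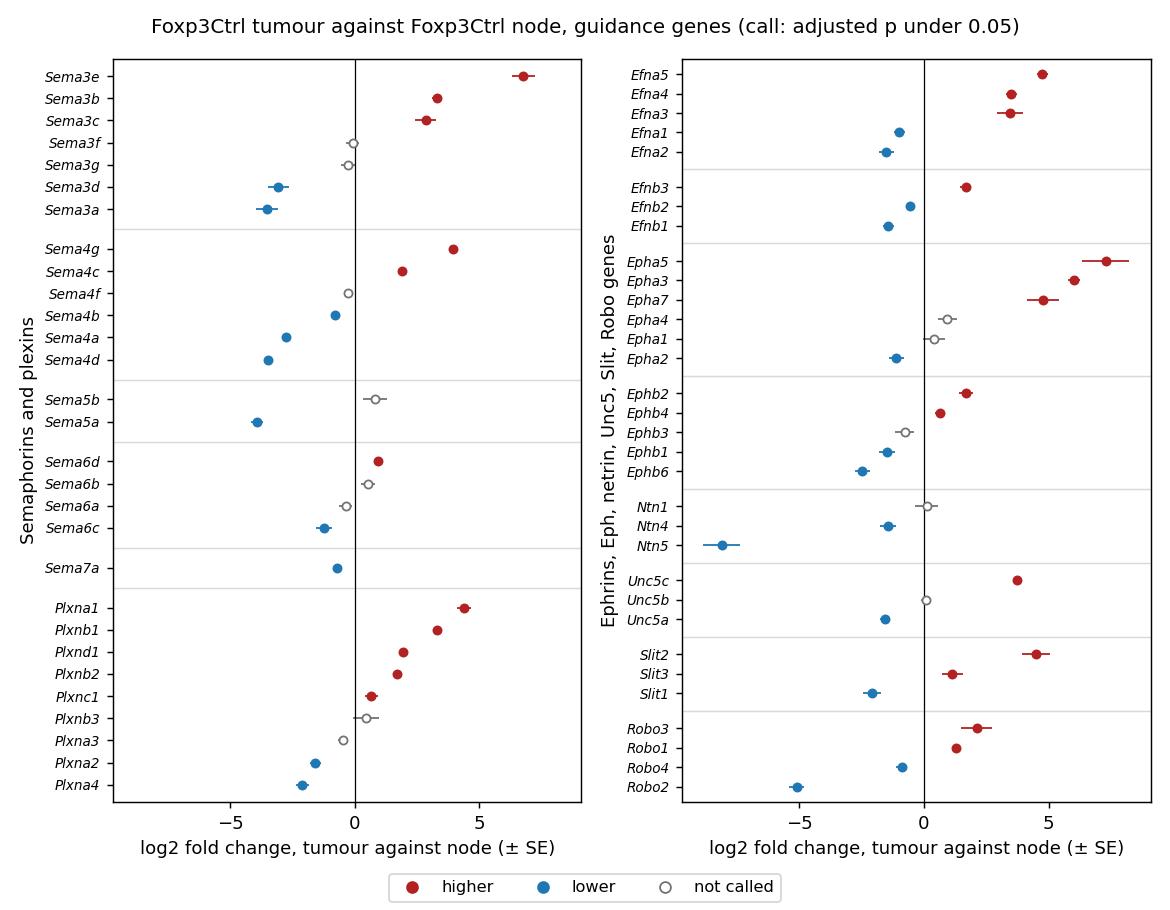
Log2 fold change of the 61 tested guidance genes, Foxp3Ctrl tumour against Foxp3Ctrl node, ± SE from edgeR, grouped by family. Filled points passed an adjusted p of 0.05 (25 higher, 23 lower) and open points did not (13). Members of the same family stand on both sides of 0, as with Sema3e at 6.76 and Sema3a at -3.52.

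Among the secreted class 3 semaphorins, 3 of 7 were higher in tumour and 2 lower. Sema3b had 18.4, 13.2 and 10.9 CPM in the nodes and 141, 117 and 146 CPM in the tumours, a log2 fold change of 3.30 ± 0.22. All tumours lay far above all nodes, and Sema3b was the most abundant class 3 gene of the tumours per kilobase. Sema3e, which binds plexin-D1 without a neuropilin, rose from between 0.0275 and 0.0464 CPM to 5.14, 4.03 and 2.77 CPM (log2 fold change 6.76 ± 0.44). Its node level rests on 4 counts over the 3 nodes, so the size of that fold is loosely fixed. Sema3c rose too, by 2.85 ± 0.43 on the log2 scale, from at most 1.18 CPM to between 3.55 and 8.34 CPM.

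Sema3a, the class member known for collapsing growth cones through neuropilin-1 and A-type plexins, went the other way. It had 10.3, 12.8 and 5.13 CPM in nodes and 1.12, 0.684 and 0.592 CPM in tumours, without overlap, and a log2 fold change of -3.52 ± 0.44. Sema3d fell from 12.7, 14.9 and 6.68 CPM to 2.00, 1.03 and 0.996 CPM (-3.05 ± 0.42). In both genes the third control node was the lowest of its group. Sema3f (-0.09 ± 0.25) and Sema3g (-0.27 ± 0.29) were not called, and their node and tumour values overlapped. Sema3f was the most abundant of the class in nodes per kilobase.

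The class 4 semaphorins split into genes with a node-side and a tumour-side maximum. Sema4d fell from 276, 257 and 294 CPM in nodes to 23.3, 20.6 and 27.6 CPM in tumours, an 11.6-fold lower mean and a log2 fold change of -3.48 ± 0.13 (edgeR adjusted p = 3.93e-07). Sema4a, a ligand of T cells and dendritic cells, fell from 139, 141 and 155 CPM to 26.9, 15.9 and 19.6 CPM (-2.74 ± 0.18), and Sema4b fell by 0.79 ± 0.10 on the log2 scale. Sema4d and Sema4a are lymphoid genes by background knowledge, and the T cell, B cell and dendritic cell marker lists moved the same way, the dendritic list from between 289 and 306 CPM to between 20.1 and 25.4 CPM. Their part in these falls was not tested.

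Sema4c and Sema4g, which bind plexin-B2, rose. Sema4c had 18.4, 24.6 and 22.1 CPM in nodes and 75.8, 78.3 and 78.2 CPM in tumours (log2 fold change 1.89 ± 0.13). Sema4g had 1.76, 2.18 and 2.09 CPM in nodes and 29.6, 30.1 and 29.9 CPM in tumours (3.94 ± 0.14), a tumour spread of 0.863% of the mean, the smallest of the 53 genes with a tumour mean of at least 1 CPM. Sema4f had 16.9, 18.0 and 22.3 CPM in nodes and 15.2, 15.5 and 14.6 CPM in tumours, without overlap. It was not called (-0.28 ± 0.13, edgeR adjusted p = 0.0805).

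In the remaining classes Sema5a, a membrane semaphorin with thrombospondin repeats, fell from 21.4, 17.8 and 20.6 CPM to 1.68, 1.10 and 1.03 CPM (-3.91 ± 0.23). Sema5b, at most 1.44 CPM in any library, was not called. Sema6d, a transmembrane partner of plexin-A1, rose from 39.4, 50.04 and 38.5 CPM to 78.6, 75.7 and 82.6 CPM (0.94 ± 0.14), whereas Sema6c fell by 1.24 ± 0.32 on the log2 scale. Sema6a was not called. Sema6b had 18.7, 26.8 and 16.5 CPM in nodes and 29.7, 36.0 and 20.8 CPM in tumours, overlapping ranges with a log2 fold change of 0.53 ± 0.27 and an edgeR adjusted p of 0.11. The tumour was above the node in each of the 3 mice. Sema6b was called in 4 of 14 alternatives, with edgeR adjusted p of 0.00606 with the mouse as a block, 0.045 in the joint fit of 9 libraries, 0.0252 without node 2 and 0.027 without tumour 3. Sema7a, a lipid-anchored ligand of plexin-C1 and of integrins, fell from 76.3, 88.5 and 77.0 CPM to 54.5, 47.3 and 40.3 CPM (-0.71 ± 0.14).

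Of the 9 plexins, 5 were higher in tumour, 2 lower and 2 not called. Plxna1 (ENSMUSG00000030084, chr6:89316314-89362620 of GRCm38, minus strand) had 55.7, 68.4 and 40.0 CPM in nodes and 875, 1073 and 1363 CPM in tumours. Its mean was 20.2-fold higher, with a log2 fold change of 4.38 ± 0.29 (edgeR adjusted p = 8.07e-06). The gene alone made up between 26.4% and 35.2% of the summed guidance level of a tumour, against between 2.58% and 4.00% of a Foxp3Ctrl node. On the opposite strand Gm26811 shares 10.7% of its exon bases. Gm26811 had between 8.71 and 12.8 CPM in tumours and between 0.523 and 1.38 CPM in these nodes. As the strand setting of the counting is not given in the sources used here, reads of the shared bases cannot be told apart.

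The other plexin rises were smaller in fold. Plxnd1, the receptor of Sema3e and a gene of blood vessel patterning, had 129, 164 and 137 CPM in nodes and 489, 557 and 540 CPM in tumours (1.94 ± 0.14). Plxnb2 rose from 170, 197 and 145 CPM to 523, 564 and 499 CPM (1.68 ± 0.15). Plxnb1, the high-affinity receptor of Sema4d, rose from 14.9, 14.0 and 17.3 CPM to 126, 136 and 174 CPM (3.30 ± 0.14). So receptor and ligand of the Sema4d pair lay on opposite sides of the comparison, with Plxnb1 higher and Sema4d lower in each tumour than in each node. Plxna2 (-1.58 ± 0.21) and Plxna4 (-2.09 ± 0.26) fell. Plxnc1 had 133, 126 and 142 CPM in nodes against 200, 129 and 283 CPM in tumours, so tumour replicate 2 lay within the node range. Its call (log2 fold change 0.67 ± 0.25, edgeR adjusted p = 0.0448) was lost in 9 of 14 alternatives. Among them were 5 of the 6 fits that left out 1 library, where the edgeR adjusted p was 0.0963 without Foxp3Ctrl node 1, 0.111 without node 2, 0.107 without node 3, 0.0815 without tumour 1 and 0.0721 without tumour 3.

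**Figure D3:**
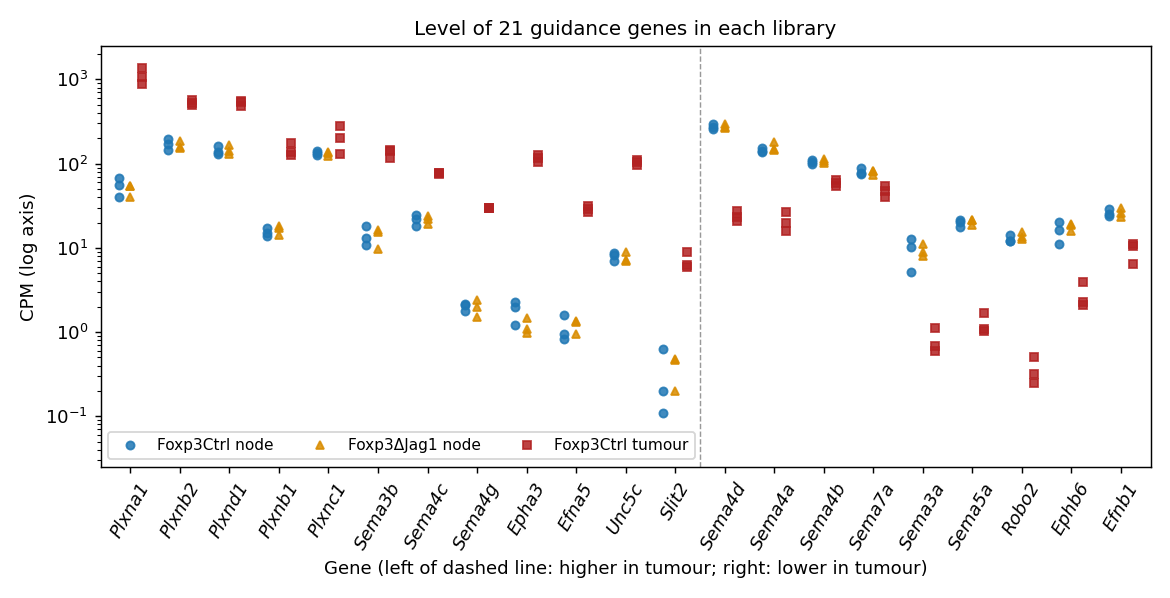
CPM (log axis) of 21 guidance genes in each of the 9 libraries, with 12 genes higher in tumour left of the dashed line and 9 lower in tumour right of it; circles are Foxp3Ctrl nodes, triangles Foxp3ΔJag1 nodes and squares Foxp3Ctrl tumours. For Plxna1 the tumours stand at 875 to 1363 CPM against 40.0 to 68.4 CPM in the control nodes, for Sema4d at 20.6 to 27.6 against 257 to 294 CPM, and only Plxnc1 has a tumour within its control node range.

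The ephrins-A had 3 of 5 genes higher and 2 lower. Efna5, a lipid-anchored ligand of many EphA receptors, had 0.826, 0.952 and 1.58 CPM in nodes and 26.4, 28.9 and 31.2 CPM in tumours (4.75 ± 0.23). Efna4 rose from 0.881, 1.14 and 1.10 CPM to 9.80, 11.8 and 12.5 CPM (3.50 ± 0.22), and Efna3 from at most 0.0846 CPM to between 0.374 and 0.952 CPM (3.46 ± 0.52). Opposite-strand genes share 10.5% of Efna4's exon bases (4731419I09Rik, at most 0.976 CPM in any library) and 14.1% of Efna3's (Gm15998, at between 2.29 and 3.98 CPM in tumours, above Efna3 itself). Efna1, the most abundant of the subfamily in nodes per kilobase and a partner of EphA2, fell from 7.77, 12.5 and 9.22 CPM to 5.01, 5.08 and 4.33 CPM (-0.98 ± 0.23). Efna2 fell by 1.495 ± 0.285 on the log2 scale.

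Of the ephrins-B, Efnb1 fell from 25.2, 29.2 and 24.1 CPM to 11.2, 10.5 and 6.51 CPM (-1.42 ± 0.22), and Efnb3 rose from between 1.18 and 1.25 CPM to between 3.55 and 4.05 CPM (1.68 ± 0.22). Efnb2, the arterial ligand of EphB4, had 14.9, 19.9 and 15.6 CPM in nodes and 10.7, 12.0 and 10.8 CPM in tumours. Its fall (-0.54 ± 0.17, edgeR adjusted p = 0.0197) was lost without Foxp3Ctrl node 2 (edgeR adjusted p = 0.0649), without tumour 1 (0.0662) or without tumour 3 (0.0656).

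EphA receptors were called higher in 3 of 6 tested genes and lower in 1. Epha3 (ENSMUSG00000052504, chr16:63543534-63864175 of GRCm38, minus strand), a kinase receptor for ephrins-A, had 2.29, 2.00 and 1.21 CPM in nodes and 116, 126 and 104 CPM in tumours. The mean was 62.9-fold higher, with a log2 fold change of 6.02 ± 0.25 (edgeR adjusted p = 8.57e-07), and Epha3 made up most of the EphA sum of 134 ± 4.53 CPM. Epha5 had 2 counts in all over the nodes and 330 over the tumours, with 1.89, 1.49 and 6.17 CPM in the latter. The ratio of these summed counts per library total was 171, with a 95% exact interval of 47.0 to 1420 that covers counting error only. Epha7 rose from at most 0.325 CPM to 5.06, 3.83 and 8.44 CPM (4.78 ± 0.63). In both Epha5 and Epha7 tumour replicate 3 was the highest. Epha2, the most abundant EphA gene of the nodes per kilobase, fell from 5.87, 9.38 and 7.64 CPM to 3.91, 4.03 and 2.34 CPM (-1.10 ± 0.29).

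Epha4 was not called (2.18, 2.23 and 3.07 against 3.94, 2.47 and 7.44 CPM, 0.94 ± 0.39, edgeR adjusted p = 0.0584). It was called in 5 of 14 alternatives: with the mouse as a block (edgeR adjusted p = 0.049), without tumour 2 (0.0135), with no filter on low counts (0.0341), in the joint fit of 9 libraries (0.026) and with DESeq2 (0.0263). Epha6, Epha8 and Epha10 had too few counts to be tested, and so had the netrin receptor gene Unc5d. Epha8 had 13, 2 and 1 counts in the nodes and 0 in the tumours, so most of its counts came from node 1.

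The EphB genes split evenly. Ephb2 rose from 1.93, 2.23 and 1.72 CPM to 7.96, 5.59 and 4.73 CPM (1.69 ± 0.27), and Ephb1 fell by 1.47 ± 0.33 on the log2 scale from at most 0.798 CPM. Ephb6, a receptor without kinase activity that T cells express, fell from 16.2, 11.2 and 20.4 CPM to 2.29, 2.12 and 3.92 CPM (-2.45 ± 0.30), beside the fall of the T cell markers given above, whose part was not tested. Ephb4, a receptor of veins and lymphatics, had 30.0, 41.8 and 25.7 CPM in nodes and 49.3, 55.2 and 43.7 CPM in tumours (0.65 ± 0.21, edgeR adjusted p = 0.0228). The call was lost without node 1 (edgeR adjusted p = 0.0758), without node 3 (0.0567) or without tumour 2 (0.0557). The blood endothelial markers went the other way, with between 612 and 831 CPM in nodes and between 122 and 196 CPM in tumours. Ephb3 was not called, except without tumour 1, where it was lower (edgeR adjusted p = 0.0102).

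In the netrin system, ligands were low and the receptor Unc5c stood out. Ntn4, a netrin of basement membranes, fell from 8.73, 12.3 and 6.52 CPM to 3.97, 3.49 and 2.40 CPM (-1.44 ± 0.32), and Ntn1 was not called (0.11 ± 0.46). Ntn5 had 107 counts over the 3 nodes and none over the tumours. Against a floor of 3 counts over the group it was at least 34.4-fold lower. The opposite-strand gene Sec1 shares 23.4% of Ntn5's exon bases and fell as well, from between 0.789 and 1.10 CPM to between 0.0311 and 0.186 CPM. Unc5c rose from 8.32, 8.80 and 7.08 CPM to 104, 110 and 97.7 CPM (3.74 ± 0.14). Unc5a fell by 1.56 ± 0.21 on the log2 scale, and Unc5b, the vascular netrin receptor, was not called, with overlapping values of 12.1 to 16.5 CPM in nodes and 11.8 to 17.0 CPM in tumours.

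Slits and Robos also went both ways. Slit2 rose from at most 0.627 CPM to 8.92, 6.01 and 6.32 CPM (4.49 ± 0.57), and Slit1 fell from between 0.716 and 1.04 CPM to between 0.156 and 0.268 CPM (-2.07 ± 0.35). Slit3, the most abundant Slit of both tissues per kilobase, had 6.99, 13.9 and 6.40 CPM in nodes and 27.9, 19.7 and 11.4 CPM in tumours, with tumour 3 inside the node range. Its call (1.15 ± 0.43, edgeR adjusted p = 0.0462) was lost without node 1 (edgeR adjusted p = 0.129), node 3 (0.129), tumour 1 (0.127) or tumour 2 (0.0899), and with no filter on low counts (0.133). The summed fibroblast marker list was likewise highest in tumour 1 and lowest in tumour 3, with 2812, 1507 and 999 CPM. Col1a1 (1626, 871 and 550 CPM) and Col1a2 (1032, 538 and 367 CPM) made up most of that sum, and Dcn had the same order. Pdgfra (26.2, 10.35 and 11.6 CPM) and Lum (20.4, 7.59 and 8.41 CPM) were lowest in tumour 2, and Pdgfrb (38.85, 40.0 and 27.6 CPM) was highest there. The part of these markers was not tested.

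Robo1, the common Slit receptor, rose from 20.7, 16.4 and 15.3 CPM to 38.4, 40.8 and 43.2 CPM (1.28 ± 0.15). Robo2 fell from 14.4, 12.0 and 12.0 CPM to 0.506, 0.317 and 0.249 CPM, a 35.8-fold lower mean and a log2 fold change of -5.09 ± 0.29. The sum of the Robo family hid this, at 53.8 ± 3.73 CPM in nodes and 54.6 ± 1.26 CPM in tumours. Robo4, an endothelial member, fell from 19.8, 27.8 and 22.1 CPM to 13.4, 14.3 and 8.78 CPM (-0.88 ± 0.23). The blood endothelial markers fell too, as given for Ephb4. Robo3, at most 1.68 CPM in any library, was called higher (2.12 ± 0.61) but not without node 3 (edgeR adjusted p = 0.0528).

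Over the 48 called genes, 22 of the 25 rises and 18 of the 23 falls were at least 1 on the log2 scale. Of these, 13 rises and 6 falls were at least 3. The same shares over all called genes were not counted, so these sizes have no background beside them. Sema3e, Epha5 and Efna3, all among the rises of at least 3, had few node counts and passed the filter through the tumours. Epha7 (1, 14 and 10 counts in the nodes), Slit2 (4, 27 and 7) and Robo3 (4, 24 and 7) would not have passed on their nodes alone. Among the falls, Ntn5 (no tumour count), Robo2 (19, 13 and 8 counts in the tumours), Slit1 (6, 11 and 5) and Ephb1 (7, 11 and 10) passed through the nodes. Of 13 genes without a call, Plxna3 (-0.48 ± 0.20, edgeR adjusted p = 0.0597) was called lower without node 2 (0.0166) and with a minimum of 1 CPM in 3 libraries (0.0492).

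Co-receptors and intracellular partners were read from a list of 54 genes, of which 50 were tested, 23 higher and 19 lower in tumour. These are shares of 46% and 38%, beside 35.6% and 37.6% of all genes tested, and the median log2 fold change was 0.22, beside -0.05 for all genes tested. Nrp1, the co-receptor of class 3 semaphorins, had 63.7, 84.2 and 68.0 CPM in nodes and 77.8, 59.5 and 61.5 CPM in tumours and was not called (-0.07 ± 0.15). Nrp2 rose slightly, from 75.9, 84.5 and 69.2 CPM to 96.0, 86.6 and 113 CPM (0.42 ± 0.14). Neogenin (Neo1), a netrin and RGM receptor, rose from 4.30, 5.43 and 3.67 CPM to 141, 114 and 160 CPM (4.99 ± 0.22), whereas Dcc was at 0 counts in all nodes and at most 0.213 CPM in a tumour. Gpc1, a heparan sulphate proteoglycan that binds Slit, rose by 3.67 ± 0.14, and Enah, an actin regulator downstream of Robo, by 3.99 ± 0.17 on the log2 scale. Cd72, the B cell receptor of Sema4d, fell from 182, 148 and 218 CPM to 16.8, 14.7 and 19.4 CPM (-3.37 ± 0.15). Of the cytoplasmic partners Vav2 fell by 2.52 ± 0.12 and Fyn by 1.84 ± 0.10 on the log2 scale. Sema4d and Cd72, ligand and B cell receptor, were both lower in tumours than in nodes. The B cell markers summed to at most 3.30 CPM in tumours, and their part in these falls was not tested.

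RefSeq promoters of GRCm38.p6 were found for 56 of the 65 genes, as 72 windows of 250 bases before a start site. Epha3 and Robo2 are shown as the genes with a large rise and a large fall, with each CG pair in capitals, and Sema6d as a gene that rose and holds CACGTG, the E-box form that the melanocyte factor Mitf binds, in capitals. All are written 5′ to 3′ on the gene's strand and end at the base before the start site that GENCODE M21 also gives.
Epha3, chr16:63864176-63864425, minus strand: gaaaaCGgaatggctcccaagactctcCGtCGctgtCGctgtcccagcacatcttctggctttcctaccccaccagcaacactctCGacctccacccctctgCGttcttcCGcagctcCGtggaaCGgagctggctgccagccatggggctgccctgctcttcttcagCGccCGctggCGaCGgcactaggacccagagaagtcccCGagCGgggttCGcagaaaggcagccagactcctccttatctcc
Robo2, chr16:74411826-74412075, minus strand: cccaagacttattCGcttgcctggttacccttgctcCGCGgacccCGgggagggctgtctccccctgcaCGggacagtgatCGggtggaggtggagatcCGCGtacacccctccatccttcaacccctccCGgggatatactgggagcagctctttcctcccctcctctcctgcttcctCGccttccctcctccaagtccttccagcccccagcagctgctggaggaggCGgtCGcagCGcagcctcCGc
Sema6d, chr2:124089719-124089968, plus strand: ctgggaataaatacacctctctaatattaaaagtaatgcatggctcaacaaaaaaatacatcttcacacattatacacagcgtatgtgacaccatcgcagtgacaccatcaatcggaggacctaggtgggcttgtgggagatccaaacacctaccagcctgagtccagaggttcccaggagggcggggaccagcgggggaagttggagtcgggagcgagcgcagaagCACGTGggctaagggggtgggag
The Epha3 window holds 16 CG pairs and the Robo2 window 14. Over genes called higher the median was 20 CG pairs in 27 windows, over genes called lower 13 in 31 windows, and over all 32841 RefSeq promoters 6 CG pairs. Both medians thus lay above that of all promoters. So did the median of the 11 windows of genes without a call (12 CG pairs) and that of all 72 windows (15.5). No gene-type filter was applied to the set of all promoters, whereas the guidance genes are all protein-coding. Single windows of lower genes held between 0 and 27 CG pairs, and a gene can have several windows. The motif CACGTG, which reads the same on both strands, stood in 1 of the 27 windows of higher genes (3.70%), in 2 of the 31 of lower genes (6.45%) and in 6.02% of all promoters. In Sema6d it begins 23 bases before the start site. TCATGTG, another form bound by Mitf, searched on both strands, stood in none of the 72 windows and in 3.25% of all promoters. These counts describe the windows only.

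The genotype comparison within nodes gave no call. With the 3 Foxp3ΔJag1 nodes against the 3 Foxp3Ctrl nodes, edgeR called 0 of 58 tested guidance genes, and so did DESeq2 and limma-voom. Only Ntn5 had an unadjusted p under 0.05. Among all 18440 genes tested edgeR called 0.0325% higher, 0.00542% lower and 0.038% in either direction, so calls were rare in general. The same 3 Foxp3Ctrl nodes serve in both comparisons. For the 29 genes with a mean of at least 10 CPM the log2 fold changes lay between -0.37 (Sema3d) and 0.24 (Sema4f), with SEs between 0.07 and 0.29.

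**Figure D4:**
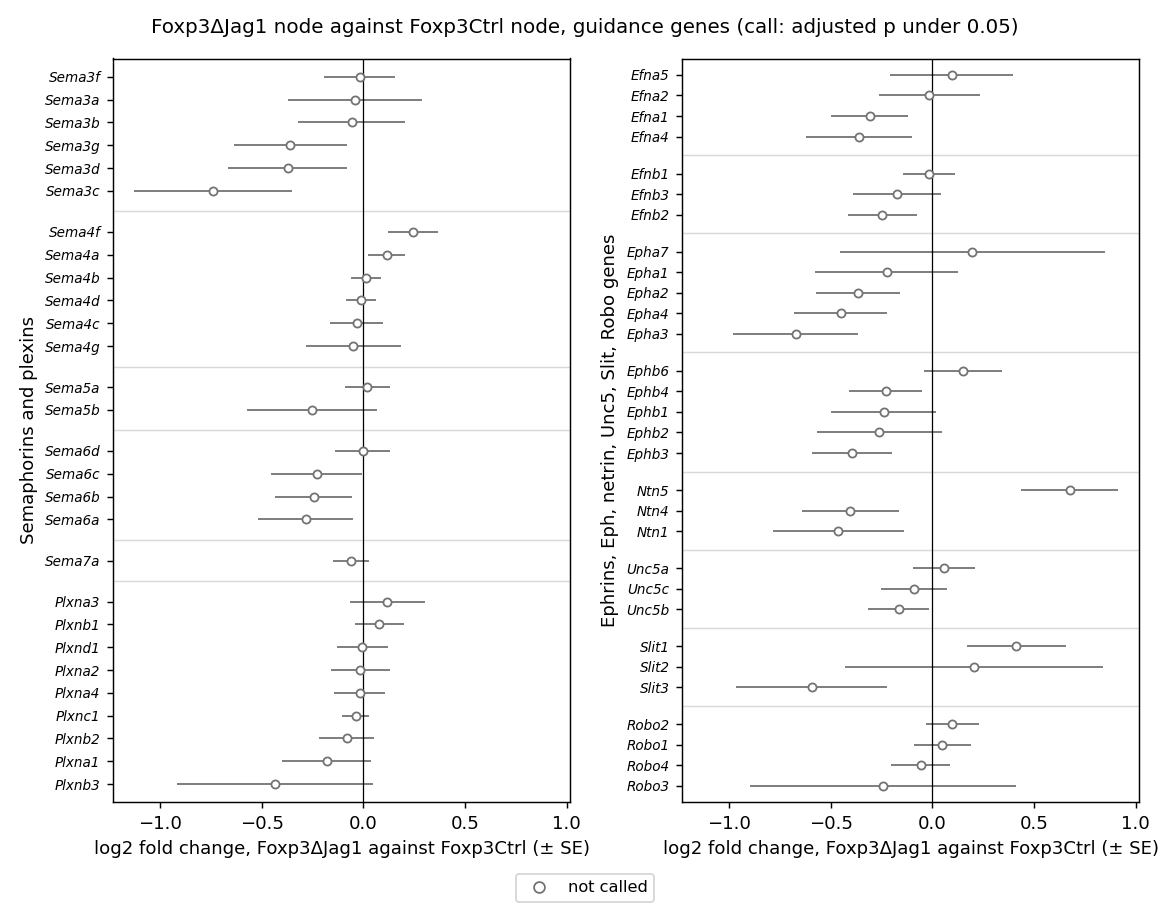
Log2 fold change of the 58 tested guidance genes, Foxp3ΔJag1 node against Foxp3Ctrl node, ± SE from edgeR, grouped by family; open points did not pass an adjusted p of 0.05, which holds for all 58. The values lie between -0.74 (Sema3c) and 0.67 (Ntn5), and the widest bars belong to genes of low count such as Robo3 and Epha7.

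The abundant node genes were close between genotypes. Sema4d had 276, 257 and 294 CPM in Foxp3Ctrl and 264, 293 and 276 CPM in Foxp3ΔJag1 nodes (log2 fold change -0.01 ± 0.07). Sema4a had 139, 141 and 155 CPM against 182, 148 and 147 CPM (0.11 ± 0.09), with Foxp3ΔJag1 node 1 the highest of the 6. Plxnd1, a vessel receptor, had 129, 164 and 137 CPM against 168, 140 and 129 CPM (-0.01 ± 0.12), and Plxnb2 gave -0.08 ± 0.14. Among genes of lymphatic and blood vessels, Ephb4 had 30.0, 41.8 and 25.7 CPM against 29.2, 28.6 and 27.1 CPM (-0.23 ± 0.18), Efnb2 14.9, 19.9 and 15.6 CPM against 17.5, 12.6 and 13.1 CPM (-0.25 ± 0.17), and Nrp2 gave -0.05 ± 0.09. In Ephb4 and Efnb2 the groups overlapped, and Foxp3Ctrl node 2 was the highest of the 6 libraries.

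The 5 genes with the smallest unadjusted p were all of low or moderate level. Ntn5 had 0.716, 1.02 and 1.04 CPM in Foxp3Ctrl and 1.56, 1.36 and 1.59 CPM in Foxp3ΔJag1 nodes, without overlap (0.67 ± 0.24, unadjusted p = 0.0217 and adjusted p = 0.953 in edgeR's quasi-likelihood test). Its opposite-strand neighbour Sec1 had between 0.789 and 1.10 against between 0.694 and 0.963 CPM. Epha3 had 2.29, 2.00 and 1.21 against 0.963, 1.09 and 1.46 CPM (-0.67 ± 0.31), Ephb3 gave -0.40 ± 0.20 and Epha4 -0.45 ± 0.23, all with overlapping groups. Sema4f had 16.9, 18.0 and 22.3 CPM against 25.9, 20.3 and 22.5 CPM (0.24 ± 0.13). All 5 had the same edgeR adjusted p of 0.953. Values of the 2 groups did not overlap for 3 of 58 genes (5.17%; Ntn5 and Slit1 higher, Efnb3 lower in Foxp3ΔJag1), against 7.29% of all genes tested.

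Signs leaned to the Foxp3Ctrl side: 43 of 58 guidance genes (74.1%) had a negative log2 fold change, against 51.2% of all genes tested, and the medians were -0.06 and -0.0045. All 6 tested class 3 semaphorins, 4 class 6 semaphorins and 3 ephrins-B were among the negative ones. The lean was not seen without Foxp3Ctrl node 2, where 28 of 60 guidance genes tested (46.7%) were negative and the median was 0.01. In that fit 50.95% of all genes were negative. Leaving out any other library gave between 59.3% (without Foxp3ΔJag1 node 3) and 75.9% (without Foxp3ΔJag1 node 1). With library size as the only scaling 35 of 58 (60.3%) were negative, against 44.8% of all genes. Foxp3Ctrl node 2 was the highest of the 3 control nodes for 35 of the 58 guidance genes (60.3%), against 28.1% of all genes tested. The blood endothelial markers summed to 617, 831 and 612 CPM in Foxp3Ctrl nodes 1, 2 and 3, the lymphatic endothelial markers to 169, 281 and 75.5 CPM, and the fibroblast and reticular cell markers to 752, 914 and 451 CPM, each highest in node 2. In Foxp3ΔJag1 nodes these lists held 642 to 658, 120 to 135 and 479 to 686 CPM. Within the 3 lists only Pdgfra (50.94, 44.65 and 37.85 CPM) and Pdpn (11.45, 10.49 and 7.25 CPM) were highest in Foxp3Ctrl node 1. Not every list peaked in node 2. The pericyte and smooth muscle markers summed to 329, 303 and 246 CPM in Foxp3Ctrl nodes 1, 2 and 3. Myeloid markers had 1772, 1756 and 1391 CPM there, and T cell markers 1101, 1014 and 1311 CPM. The part of these markers in the guidance values was not tested.

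**Figure D5:**
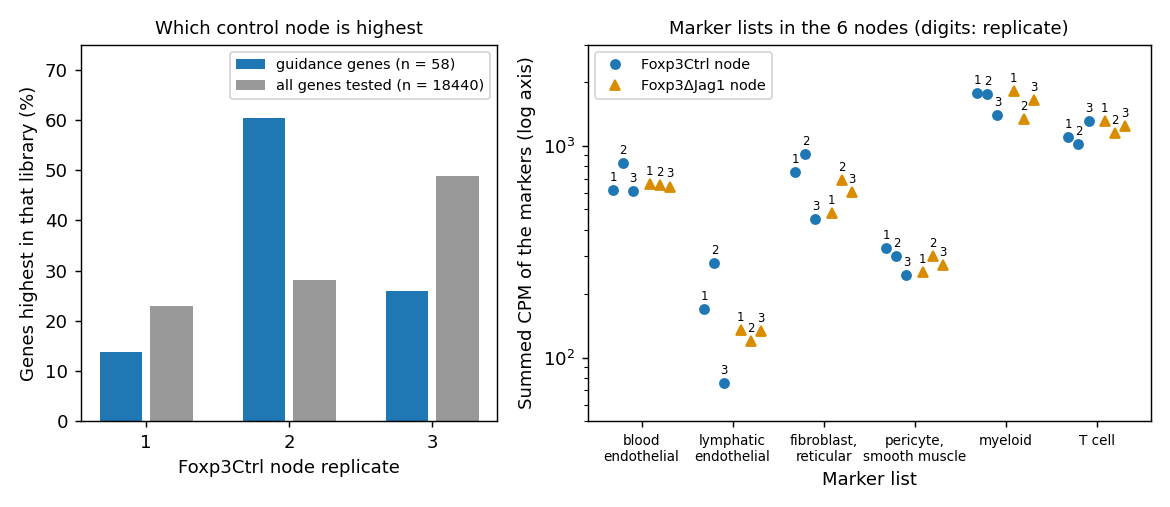
Left, share of genes (bars, percent) for which each of the 3 Foxp3Ctrl nodes was the highest, for 58 guidance genes and for all 18440 genes tested; right, summed CPM (log axis) of 6 marker lists in each of the 6 nodes, with the replicate number above each point. Foxp3Ctrl node 2 was highest for 60.3% of the guidance genes and has the highest blood endothelial (831 CPM), lymphatic endothelial (281 CPM) and fibroblast (914 CPM) sums. Among the Foxp3Ctrl nodes the pericyte (329 CPM) and myeloid (1772 CPM) sums are highest in node 1 and the T cell sum (1311 CPM) in node 3.

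Foxp3Ctrl node 3 had the lowest sums of the blood endothelial, lymphatic endothelial and fibroblast lists. Its epithelial marker sum was the highest (123 CPM, against 6.94 to 33.9 CPM in the other nodes). Without this node, 8 guidance genes had an unadjusted edgeR p under 0.05. They were Sema3d, Epha3, Ntn4, Ephb4, Plxna1 and Sema6b on the lower side and Sema4f and Ntn5 on the higher side. None was called, the smallest edgeR adjusted p being 0.171 for Sema3d (-0.66 ± 0.15). In that fit an unadjusted p under 0.05 was found for 16.9% of all genes and for 13.3% of the guidance genes.

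Of the 54 co-receptors and partners, 52 were tested between genotypes. EdgeR, DESeq2 and limma-voom each called 0, and edgeR gave 2 an unadjusted p under 0.05, beside 581 (3.15%) of all 18440 genes. Those 2 were Dpysl5, a collapsin response mediator (-1.38 on the log2 scale, at most 0.688 CPM in a node), and Enah (between 9.5 and 10.3 CPM in Foxp3Ctrl nodes and between 8.14 and 8.51 CPM in Foxp3ΔJag1 nodes, -0.27). Nrp1 gave -0.15 ± 0.11 and Neo1 -0.17, and Dcc had no count in any of the 6 nodes.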

How the data were processed

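The authors deposited raw counts of reads per gene, not normalized, as a table of nodes and a table of tumours. Trimmomatic 0.36, STAR 2.5.2b, featureCounts of Subread 1.5.2 and the build GRCm38 are named, per the submitters' processing notes, with the annotation and strandedness not given in the sources used here. GENCODE M21 matched 49056 of 49315 identifiers, and 3 tumour columns that match no labelled sample were not used. The genes followed, the lists and the tests were chosen with earlier results of these data known.

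CPM used each library's total count, and CPM per kilobase divided by merged exon length. Groups of 3 libraries were tested with edgeR 4.0.16 in R 4.3.3 (quasi-likelihood, TMM, filterByExpr, robust), with p-values adjusted by Benjamini-Hochberg across every gene that passed the filter. The script was tested on simulated data, with 100 genes changed 2-fold and 100 changed 4-fold. In the node comparison 57 and 90 of them were called, and in the tissue comparison 49 and 78. Alternatives were other scalings and filters, DESeq2 1.42.0, limma-voom (limma 3.58.1), a block on the replicate, a fit of all 9 libraries, and leaving out each library. Control node and tumour of 1 replicate number carry the same mouse code and so come from the same animal. Their deviations from the group means correlated at -0.0827, 0.127 and -0.00272. Genes named by rule were the 10 largest called rises and falls, the 5 smallest p between genotypes, each family's most abundant gene per tissue, and, of the partner list, the 3 smallest p per direction with Nrp1, Nrp2, Dcc and Neo1. Other genes were named after their values were seen. Library names point to separate mice within a group. Intervals and floors cover counting error only.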

Additional observations from a re-analysis of the deposited data

How the results depend on the processing

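Between genotypes no guidance gene was called in any of the 14 alternatives. The calls among all genes went from 7 to 70 with DESeq2, which was run on 31470 genes with its own filter in place of that of edgeR, so that tool and filter changed together. They were 11 with the replicate block, 21 without Foxp3Ctrl node 3, 16 without Foxp3ΔJag1 node 2 and 16 with no filter on low counts. Node replicates share only a number: the deviations of same-numbered nodes correlated at -0.165, 0.034 and -0.124, and the replicate block gave 0 calls among guidance genes. Between tissues, where the number marks the mouse, the replicate block gave 27 guidance genes higher and 23 lower, adding Epha4 and Sema6b to the 25 higher and losing none. The other scalings, filters, tools and the joint fit gave between 22 and 27 higher and between 21 and 24 lower, and leaving out 1 library gave 21 to 25 higher and 22 to 23 lower. No guidance gene called between tissues changed direction in any alternative. A minimum of 1 CPM in 3 libraries left Efna3, Robo3, Ephb1, Ntn5 and Slit1, all called in the main fit, untested. Between tissues the median log2 fold change of the guidance genes, 0.11, lay between 0.02 (DESeq2) and 0.34 (without Foxp3Ctrl node 2). The median SE of the log2 fold change was 0.20 between genotypes and 0.25 between tissues, and for genes of low count it reached 0.66 and 0.94.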

Other observations

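The lowest value of the 3 tumours fell in tumour 3 for 33 of 61 guidance genes (54.1%), against 33.0% of all genes tested. Tumour 3 also had the lowest fibroblast marker sum (999 CPM, against 1507 and 2812 CPM), blood endothelial sum (122 CPM, against 192 and 196 CPM) and adipocyte sum (33.6 CPM, against 287 and 320.4 CPM). Pdgfra and Lum of the fibroblast list were lowest in tumour 2 instead. The melanocyte sum (22390 CPM, against 17040 and 18050 CPM) and skeletal muscle sum (221 CPM, against 3.65 and 3.93 CPM) were highest in tumour 3. Ntn1 (5.41, 3.42 and 1.84 CPM), Ephb3 (4.18, 2.34 and 1.56 CPM) and Slit3 (27.9, 19.7 and 11.4 CPM) were each lowest there, and Plxna1 (875, 1073 and 1363 CPM) and Epha5 (1.89, 1.49 and 6.17 CPM) were highest there. These 5 genes were picked after their values were seen, and the part of the markers in them was not tested.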
